A study of Mus musculus with 4 samples.

Results

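Ercc1 and 9 further genes of nucleotide excision repair, namely Ercc2, Ercc3, Ercc4, Ercc5, Ercc6, Ercc8, Xpa, Xpc and Ddb2, were followed by PRO-seq, which counts engaged RNA polymerase per gene, in mouse embryonic stem cells that lost the zinc-finger protein Zfp574. The members were taken by gene symbol, and all 10 of them, among 12486 genes of the count table, had counts in every library and passed the filter on low counts. Ercc1 had been chosen by its fall in this same comparison, so its values are given as a description with no test. The other 9 members were chosen by pathway, with earlier results of these data known, and are read from the fit across all genes. All 4 libraries came from AID-Zfp574 cells. In this line the endogenous protein carries an N-terminal auxin-inducible degron in a parental line that expresses OsTir1 from the EF1a promoter, and it was derived by picking clones. The 2 control libraries were made at 0 h, without auxin, and the 2 depletion libraries after 6 h in 500 µM of the auxin IAA. The untagged parental cells with auxin were not analysed here, so loss of Zfp574 and exposure to auxin cannot be told apart.

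Nucleotide excision repair cuts out a short stretch of DNA around a bulky lesion, such as those made by ultraviolet light, and fills the gap from the intact strand. A lesion is found either by sensors that scan the whole genome (Xpc, and Ddb2 for ultraviolet damage) or by a polymerase stalled on it (Ercc6 and Ercc8, known as CSB and CSA). Both routes open the DNA with TFIIH, which holds the helicase Ercc2 (XPD) and the translocase Ercc3 (XPB). Xpa then helps to position the nucleases, Ercc5 (XPG) cuts on the 3′ side of the lesion, and Ercc4 (XPF), held in an obligate complex with Ercc1, cuts on the 5′ side. The Ercc1-Ercc4 nuclease also acts in the repair of DNA interstrand crosslinks.

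Library totals ran from 3298864 to 6045216 counts, with the depletion libraries the deeper. Of the 11853 genes tested with edgeR's quasi-likelihood test, 38 (0.321%) were lower at an adjusted p under 0.05 and at least 2-fold, and 0 were higher by that rule, against 7 that were 2-fold higher at an unadjusted p under 0.05. Without the fold threshold 1.4% of genes were lower and 1.11% higher. Both depletion libraries lay below both controls in 22.9% of genes and above both in 23.4%. Zfp574 itself, whose protein rather than transcription is targeted, stood at 29.8 ± 8.09 CPM before and 35.9 ± 4.40 CPM after depletion (SD, n = 2), a log2 fold change of 0.25 with an adjusted p of 0.406 in edgeR's fit. Of 8 embryonic stem cell markers, 7 were in the table, and their summed level was 4093 to 4239 CPM in all libraries. Of 12 markers of other cells, 5 were in the table, and their sum was 33.7 to 42.7 CPM. An adjusted p under 0.05 was reached by 0 of the 7 stem cell markers and by 0 of the 2 other markers with enough counts to be tested.

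Ercc1 (ENSMUSG00000003549; chromosome 7, 19344778 to 19356524, plus strand, mm10) lost most of its transcription after depletion. Its reads numbered 24 and 23 before depletion against 10 and 4 afterwards, although the latter were sequenced more deeply. Scaled to library size, these were 7.21 and 6.28 CPM before and 1.68 and 0.712 CPM after. The groups did not overlap, and 22.9% of all genes tested were lower in this way. On the log2 scale the fitted change was -2.45 ± 0.39 (SE), or 5.46-fold lower. Because Ercc1 was picked by this fall, its size may be overstated, and the standard error takes no account of that. Ercc1 had few reads, and its mean count over the 4 libraries, the low depletion libraries included, lay above that of only 3.57% of the genes tested. Per kilobase of gene, its control level was above that of 20.04% of the genes tested. The exact Poisson 95% interval was 15.4 to 35.7 for the 24 counts, 14.6 to 34.5 for the 23, 4.80 to 18.4 for the 10 and 1.09 to 10.2 for the 4. These intervals cover counting error only. The depletion libraries differed from each other, and without depletion replicate 1 the log2 fold change was -3.18. Without depletion replicate 2 it was -1.98.

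The same counts were also expressed as shares within each library, where no scaling between libraries enters. They are the counts by which Ercc1 was picked, and add no separate evidence. Ercc1 made up 1.79% (exact binomial 95% interval 1.15 to 2.65) and 1.64% (1.04 to 2.45) of the counts of the 10 members in the controls. After depletion it made up 0.452% (0.217 to 0.831) and 0.191% (0.0522 to 0.490). Per kilobase of gene, Ercc1 stood at 41.2% and 37.6% of the level of Ercc4, its partner in the nuclease, in the controls. After depletion it stood at 12.5% and 4.76% of the Ercc4 level.

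The genes that lie beside Ercc1 gave smaller changes. Cd3eap, which encodes a subunit of RNA polymerase I, runs on the opposite strand and overlaps the 3′ end of Ercc1 by 511 bases. Its reads numbered 11 and 6 before depletion against 17 and 11 afterwards, a change of -0.01 ± 0.45 (log2, SE) with an adjusted p of 0.996. The reads were assigned to the strand of transcription, but the sources used here do not state that the count per gene used it, so the reads of this overlap cannot be apportioned. Ppp1r13l, an inhibitor of p53 family proteins, starts 3225 bases beyond the end of Ercc1 on the same strand. Its reads numbered 57 and 75 before depletion against 95 and 98 afterwards, which overlapped once scaled, a change of -0.18 ± 0.17 (log2, SE) with an adjusted p of 0.663. Ercc2 is the next gene along the chromosome and is described below with TFIIH. The differences between Ercc1 and these neighbours were not tested.

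**Figure D1:**
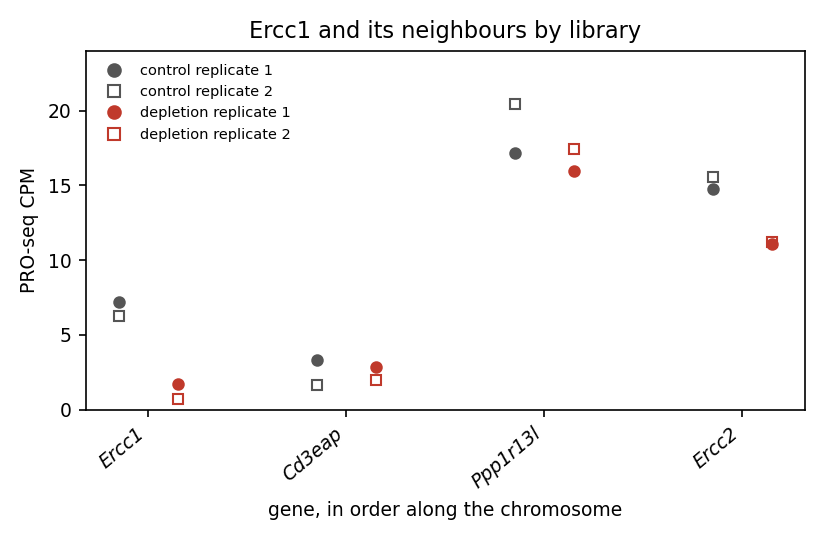
PRO-seq CPM (vertical axis, linear from 0) of Ercc1, Cd3eap, Ppp1r13l and Ercc2, in their order along chromosome 7, with a point for each library: grey for control, red for depletion, filled for replicate 1 and open for replicate 2. Ercc1 sits at 7.21 and 6.28 CPM in the controls and at 1.68 and 0.712 CPM after depletion, whereas the libraries of Cd3eap and Ppp1r13l overlap between groups.

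The promoter of Ercc1 was set beside those of the other genes that fell, because a set of genes that fall together invites a look at what their promoters share. Promoters were taken from RefSeq (GRCm38.p6) as 250 bases before and 50 after the annotated start. Entries matched 7 of the 10 members (all but Ercc3, Xpc and Ddb2), 33 of the 37 called lower genes other than Ercc1, and 9295 genes tested. Ercc1 was set aside there, since a call of a gene picked by its fall would be no evidence. Every sequence of 8 bases, on either strand, was ranked by how much larger its share was among the 33 promoters than among all 9295. Ercc1 was left out of the 33 but counted among the 9295, as were the 33 themselves. The leading sequence was CCATAGAG, present in 9 of the 33 (27.3%) and in 1.31% of all promoters. Ercc1 held it, beginning 51 bases before the RefSeq start, and none of the other 6 members with an entry did. Next came CGCTCTAG, in 24.2% of the 33 and 1.67% of all promoters. It was followed by ACCATAGA, which overlaps the leading sequence by 7 bases, with 21.2% against 0.882%. The fourth was TCTAGCCA (21.2% against 1.15%) and the fifth CTCTAGGC (21.2% against 1.85%). At least 1 of these 5 was present in 20 of the 33 promoters and in 5.68% of all. Ercc1 held the first and the third, which are the overlapping pair. Ercc2, Ercc4, Ercc5, Ercc6, Ercc8 and Xpa held 0 of the 5, which says only that these letters are not in these windows. The genes ranked were themselves picked by their fall, so no test was made, and a match is not a binding site.

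The 30 bases around CCATAGAG are shown for Ercc1 and for the 4 of the other genes with the largest falls, so that the shared part, in capitals, and the differing flanks can be compared. Each is written 5′ to 3′ on the strand that reads CCATAGAG, from RefSeq GRCm38.p6.
Ercc1, chr7:19345009-19345038, plus strand: gtcctccaggaCCATAGAGagcagcgcgaa
Zkscan8, chr13:21531137-21531166, minus strand: ttgctggcctaCCATAGAGctgtcagacct
Xrn1, chr9:95954735-95954764, minus strand: ggtccgccagaCCATAGAGcaaaccgtggg
Eef1akmt2, chr7:132852619-132852648, plus strand: gctcgaagccgCCATAGAGacgcgatttgg
Nek4, chr14:30951291-30951320, minus strand: cggaggacctgCCATAGAGcttcgctcctg

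In Ercc1 and Zkscan8 the sequence ran in the direction of the gene, and in Xrn1, Eef1akmt2 and Nek4 against it. It began 41 bases before the RefSeq start in Zkscan8. The Ercc1 stretch also lies within the GENCODE span of Ercc1, which begins at 19344778, upstream of the RefSeq start at 19345071. The start sites that the authors corrected with CAGE data were not used here, so distances are to annotated starts.

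The libraries of Ercc1 were then compared with those of every other gene tested, as the Euclidean distance between the log2 CPM values of the 4 libraries, each centred on the gene's own mean. The nearest of 11852 genes was Zfp445 at a distance of 0.61, with 73 and 76 counts before depletion against 27 and 19 afterwards. It was followed by its neighbour on chromosome 9, the predicted gene Gm35549, also at 0.61, with 8 and 11 counts against 6 and 2. Next were 9530080O11Rik (0.83), Eef1akmt2 (0.90) and Xrn1 (0.93). Eef1akmt2 and Xrn1 are among the genes whose promoters are shown above. Since Ercc1 was picked for its fall, genes near it by this measure are necessarily genes that fell.

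Apart from Ercc1, the core repair genes kept most of their transcription. Of the other 9 members, 0 passed an adjusted p under 0.05 in edgeR's quasi-likelihood test, in either direction. Of all genes tested, 1.4% passed it as lower and 1.11% as higher, so 0 of 9 is near that share. An unadjusted p under 0.05 in the same test was reached by 2 of the 9 (Ercc4 and Ercc2, both lower). Of all genes tested, 7.66% reached it as lower and 8.53% as higher. DESeq2, edgeR's likelihood ratio test and limma-voom also called 0 of the 9. In DESeq2 0 of the 9 reached even an unadjusted p under 0.05, so its count adds little. In the main fit the log2 fold changes of the 9 ran from -0.44 to 0.16 with a median of -0.07, and 6 of 9 were below 0. Over all genes tested, the median was -0.002 and 5995 of 11853 were below 0. In 5 of the 9 both depletion libraries lay below both controls, in 1 they lay above, and in 3 the groups overlapped. Among all genes tested, 22.9% lay below and 23.4% above in this way, and the difference from the 9 was not tested. The lowest bound of the 9 intervals was -0.82, for Ercc2, so that for each of these genes the 95% interval lay above a fall of 2-fold. The summed level of the 9 genes was 396 and 376 CPM in the controls and 370 and 371 CPM after depletion.

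**Figure D2:**
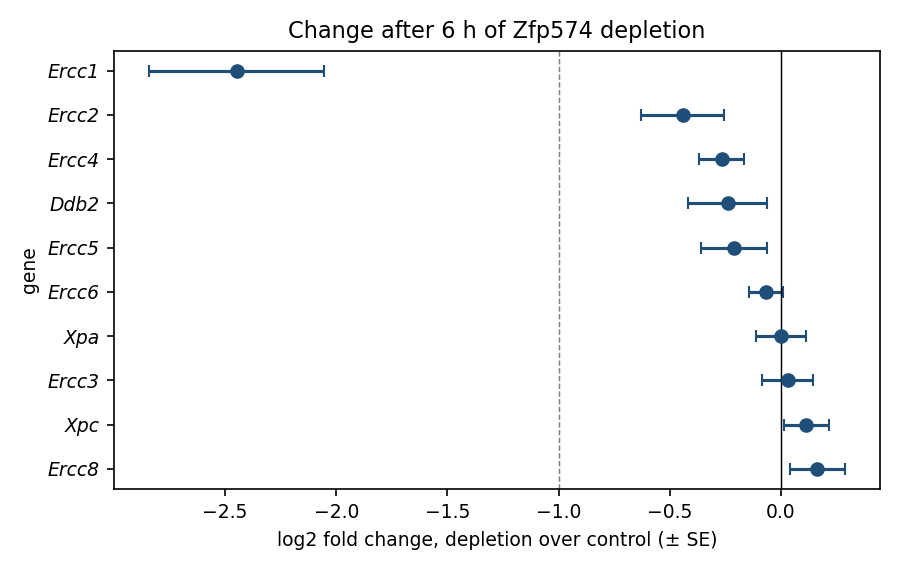
Fitted log2 fold change of depletion over control (horizontal axis) with its standard error for each of the 10 genes, ordered by change; the solid line marks no change and the dashed line a 2-fold fall. Ercc1 lies at -2.45, and the other 9 genes lie between -0.44 and 0.16.

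In the incision step, none of the members other than Ercc1 passed the threshold. Ercc4 (chromosome 16, 13109684 to 13150617), the catalytic subunit that works with Ercc1, had 61.0 and 58.1 CPM in the controls and 46.9 and 52.1 CPM after depletion. Both depletion libraries were below both controls. The log2 fold change was -0.27 ± 0.10 (SE; 95% interval -0.47 to -0.06), and the adjusted p was 0.172. With size factors recovered from the authors' mean normalized signal, which place the median of all genes at -0.11, Ercc4 reached -0.37 and an adjusted p of 0.0231 in the same edgeR test. It was the only member, Ercc1 apart, that any of the alternative settings called. The share of all genes called lower with the recovered factors, without a fold threshold, was not counted.

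Ercc5 (chromosome 1, 44147744 to 44181260), the nuclease of the other side, had 24.9 and 22.4 CPM in the controls and 19.7 and 21.2 CPM after depletion. The groups did not overlap, but the log2 fold change of -0.21 (interval -0.52 to 0.09) had an adjusted p of 0.524. Xpa (chromosome 4, 46155347 to 46196311), the scaffold of the incision complex, had 39.7 and 39.0 CPM in the controls and 40.5 and 38.1 CPM after depletion. Its groups overlapped, and its log2 fold change was -0.001 (interval -0.23 to 0.23, adjusted p 0.998). Xpa shares 17057 bases with Ncbp1 on the opposite strand, so the caution about strand applies to it as well.

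Within TFIIH the pair of DNA-opening enzymes stood at different levels, and neither passed the threshold for a change. Ercc2 (chromosome 7, 19382010 to 19395694) had 14.7 and 15.6 CPM in the controls and 11.1 and 11.2 CPM after depletion. These groups did not overlap, and the replicates were close. The log2 fold change was -0.44 ± 0.19 (SE; interval -0.82 to -0.06), and the adjusted p was 0.226. It ran from -0.48 to -0.40 when each library was left out in turn. Ercc2 is overlapped on the opposite strand by Klc3 and the antisense gene Gm26852. Ercc3 (chromosome 18, 32240300 to 32270151) had 41.8 and 38.8 CPM in the controls and 43.8 and 38.1 CPM after depletion. Its groups overlapped, with a log2 fold change of 0.03 (interval -0.21 to 0.27, adjusted p 0.942), a sign that turned with the library scaling and with the libraries included. The difference between the 2 genes was not tested.

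The sensors of damage differed in sign, and neither passed the threshold. Xpc (chromosome 6, 91489305 to 91515888) had 58.0 and 51.0 CPM in the controls and 59.8 and 57.8 CPM after depletion, with overlapping groups. Its log2 fold change was 0.11 (interval -0.09 to 0.32) and its adjusted p was 0.634. Ddb2 (chromosome 2, 91211572 to 91236982) had 16.5 and 15.6 CPM in the controls and 13.3 and 13.9 CPM after depletion. Here both depletion libraries were the lower ones, but the log2 fold change of -0.24 (interval -0.60 to 0.12) had an adjusted p of 0.548. Acp2, on the opposite strand, shares 2527 bases with Ddb2.

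The genes of transcription-coupled repair gave small changes, neither past the threshold. Ercc6 (chromosome 14, 32513521 to 32580990), the remodeler recruited by stalled polymerase, had 104 and 102 CPM in the controls and 99.6 and 96.8 CPM after depletion. Its groups did not overlap, yet the change was small, at -0.07 on the log2 scale (interval -0.22 to 0.09, adjusted p 0.724). Ercc8 (chromosome 13, 108158731 to 108195364), the substrate receptor of a ubiquitin ligase, had 34.9 and 33.6 CPM in the controls and 34.9 and 41.8 CPM after depletion. It was the only one of the 9 whose depletion libraries both lay above the controls. Depletion replicate 1 hardly exceeded control replicate 1, whereas depletion replicate 2 was clearly higher. The log2 fold change was 0.16 (interval -0.09 to 0.42, adjusted p 0.555).

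Ercc8, Xpc and Ddb2 start close to a gene that runs the other way. The start of Ercc8 lies 108 bases from that of Ndufaf2, an assembly factor of respiratory complex I. Ndufaf2 rose, with 2024 and 1601 counts before depletion against 3991 and 3665 afterwards, a change of 0.34 ± 0.08 (log2, SE) with an adjusted p of 0.0134. The value depended on the control libraries, which differed, at 0.60 when control replicate 1 was left out and 0.12 when control replicate 2 was (adjusted p 0.213). The call was also lost without either depletion library (adjusted p 0.226 and 0.159) and in DESeq2. Whether Ndufaf2 and Ercc8 differed in their change was not tested. The start of Xpc lies 40 bases from that of Lsm3, which encodes a protein of the U6 small nuclear ribonucleoprotein. Lsm3 gave 43 and 41 reads before depletion against 72 and 81 afterwards, with a log2 fold change of 0.14 with an adjusted p of 0.794. The partner of Ddb2, the noncoding A330069E16Rik, had no row in the count table. No gene of the annotation started within 1 kb of Ercc1 on the other strand.

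Levels were compared between genes per length, here the annotated GENCODE gene span. This span was 11.7 kb for Ercc1, the shortest, and 67.5 kb for Ercc6, the longest. The counts were taken over genes with CAGE-corrected starts, so the counted stretch can differ from the span, and close ranks may not hold. Where the reads lay along each gene was not examined, so any reads that do not scale with length can also alter the order. In the controls Xpc was the highest at 2.05 ± 0.185 CPM per kb (SD, n = 2), followed by Ercc6 at 1.53 ± 0.0260, Ercc4 at 1.46 ± 0.0496 and Ercc3 at 1.35 ± 0.0715. Below them were Ercc2 at 1.11 ± 0.0429, Xpa at 0.961 ± 0.0111, Ercc8 at 0.934 ± 0.0249 and Ercc5 at 0.706 ± 0.0541. The lowest were Ddb2 at 0.631 ± 0.0270 and Ercc1 at 0.574 ± 0.0563. The control libraries of adjoining genes in this order did not overlap, except for Ddb2 and Ercc1, although Xpa and Ercc8 were separated by very little. The median over genes tested was 1.52 CPM per kb, so the members spanned the lower and middle range. After depletion Ercc1 remained the lowest, at 0.102 ± 0.0583 CPM per kb, against 0.534 ± 0.0170 for Ddb2. Ercc2 moved from the fifth to the seventh place.

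**Figure D3:**
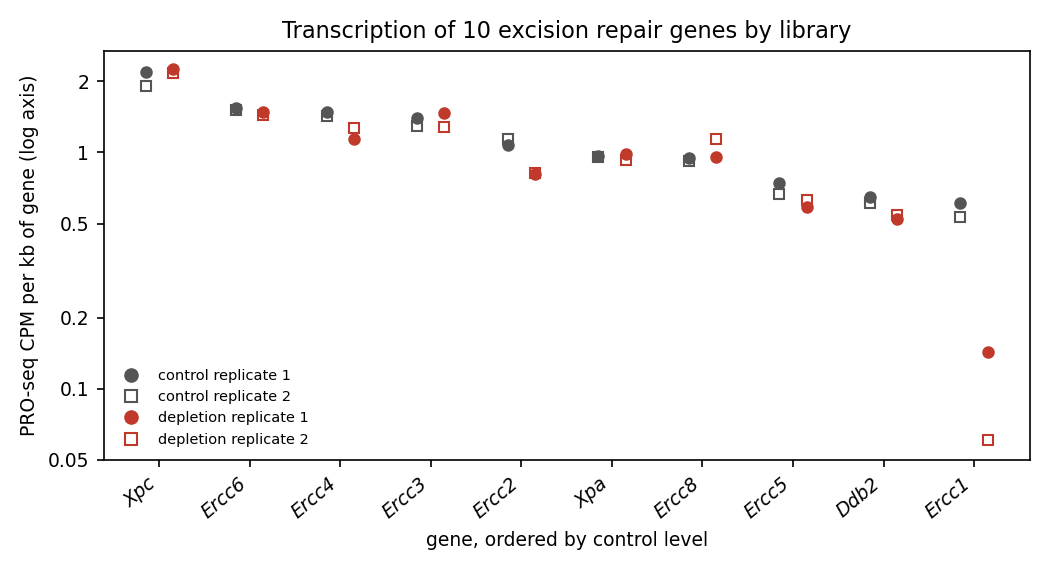
PRO-seq CPM per kb of annotated gene length (vertical axis, logarithmic) for the 10 genes, ordered by their control mean, with a point for each library: grey for control, red for depletion, filled for replicate 1 and open for replicate 2. The depletion points of Ercc1 lie at 0.143 and 0.0606 CPM per kb, below all other points.

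The wider pathway, with Ercc1 left out, gave no call in the main fit. Apart from Ercc1, 51 genes of nucleotide excision repair were listed, from damage recognition to ligation, and all but Pold4 were in the table, so that 50 were tested. In edgeR's quasi-likelihood test 0 of the 50 passed an adjusted p under 0.05. Of all genes tested, 1.4% passed it as lower and 1.11% as higher, so 0 of 50 is near that share. At an unadjusted p under 0.05 in this test there were 7 lower and 2 higher, beside 7.66% of all genes lower and 8.53% higher. DESeq2, edgeR's likelihood ratio test and limma-voom likewise called 0. In DESeq2 0 of the 50 reached even an unadjusted p under 0.05, so its count adds little. In the main fit the median log2 fold change of the 50 was -0.03, with 29 of 50 below 0, close to the -0.002 of all genes. The recovered size factors were an exception and gave 4 lower genes, which were Ercc4, the single-strand binding subunit Rpa2, the DNA ligase Lig1 and the ligation scaffold Xrcc1. These factors placed the median of all genes at -0.11. The share of all genes they called lower without a fold threshold was not counted, so the 4 are not read as a result about the pathway.

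By role, the 9 genes of damage recognition had a median of 0.06, and 6 were above 0. The lowest was the Xpc-binding protein Cetn2, at -0.85, but on 13 and 9 counts before and 10 and 10 after depletion, and its adjusted p was 0.341. The highest was the ubiquitin ligase scaffold Cul4b, at 0.16 (adjusted p 0.204). The 8 genes of transcription coupling had a median of -0.03, from Hmgn1 at -0.07 to Ercc8. The 10 TFIIH genes had a median of 0.04, from Ercc2 to the kinase Cdk7 at 0.13 (adjusted p 0.475), so Ercc2 was the member of its complex with the lowest value.

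In verification and incision, 5 of 6 genes other than Ercc1 were below 0 and the median was -0.12. These were led by Ercc4, with Rpa2 next at -0.22 (adjusted p 0.179), whereas Rpa1, the large subunit of the same complex, stood at 0.14 (adjusted p 0.344). The 17 genes of gap filling and ligation had a median of -0.08, with 11 below 0. Pold2, an accessory subunit of DNA polymerase delta, was the lowest at -0.75, on 25 and 24 counts before against 21 and 27 after depletion, with an adjusted p of 0.175. Pole3, a small subunit of DNA polymerase epsilon, was the highest at 0.51 (adjusted p 0.365), also on few counts, which were 19 and 20 before and 55 and 37 after depletion.

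Other repair pathways were read for comparison. Of all genes tested, 1.4% were lower and 1.11% higher at an adjusted p under 0.05. A count of 0 or 1 in a list of this size is therefore not read as a result about its pathway. Of 17 genes tested for interstrand crosslink repair, in which Ercc1-Ercc4 also acts, 0 passed an adjusted p under 0.05. Their median was -0.03, from Fancg at -0.78 on few counts (6 and 16 against 15 and 6) to Fan1 at 0.27. Of 19 base excision repair genes, 1 was lower. It was Parp1, the sensor of strand breaks, which fell from 68.8 ± 4.68 to 52.4 ± 2.38 CPM (SD, n = 2), a change of -0.39 ± 0.10 (log2, SE) with an adjusted p of 0.0244. Parp1 lost this call in DESeq2 (adjusted p 0.705) and without control replicate 1 or either depletion library. The base excision genes had a median of -0.07, from Neil1 at -0.68 to Ogg1 at 0.37. The 8 mismatch repair genes had a median of 0.02, and 0 passed. Of 12 genes that p53 induces after DNA damage, 0 passed, the median was -0.08, and 10 were below 0, from Ccng1 at -0.20 to Btg2 at 0.26.

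**Figure D4:**
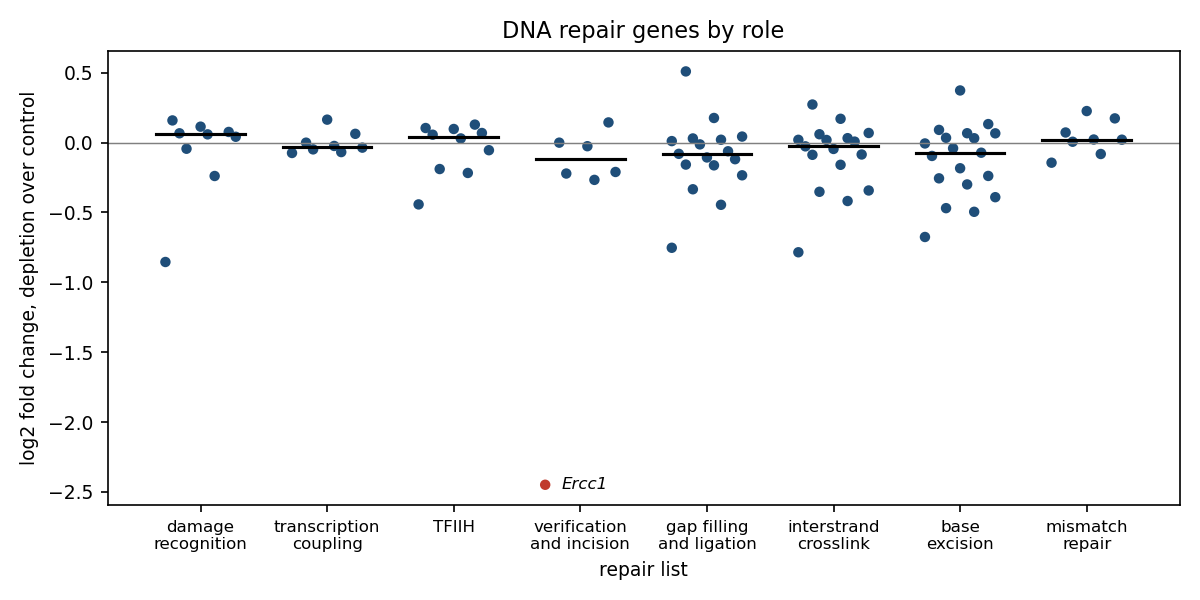
Log2 fold change of depletion over control (vertical axis) for the tested genes of 8 DNA repair lists, with a point for each gene and a black bar for the median of each list without Ercc1. Ercc1, in red, lies at -2.45, and the lowest of the other genes, Cetn2, lies at -0.85.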

How the data were processed

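Per the labels and methods, the authors trimmed reads with cutadapt 1.18, mapped them to mm10 with Bowtie 1.2.2, keeping reads with a unique best position, collapsed them by molecular identifier and counted the 3′ ends of nascent RNA over genes with CAGE-corrected starts. The deposited counts are whole numbers per gene and are not normalized. The authors also deposited a mean normalized signal per gene, used here only to recover their size factors by regression on the counts. Their methods scaled on a Drosophila spike-in, so spike-in data could enter this work only through these recovered factors. The factors were 0.699 and 0.740 for the controls and 1.32 and 1.24 for the depletion libraries. The methods describe the same factor for the replicates of a condition, so what the recovered factors hold is uncertain. The fold changes, errors, p-values and calls of the authors' own DESeq2 comparison were not used.

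Counts of the 4 libraries were filtered with filterByExpr (minimum count 10, minimum total 15), which left 11853 of 12486 genes, scaled by TMM and compared between conditions by the quasi-likelihood test of edgeR 4.0.16 under R 4.3.3 (glmQLFit, then a two-sided glmQLFTest, with no covariate). The p-values were adjusted by Benjamini-Hochberg over all genes tested. The standard error is that implied by the F statistic, and intervals are 95%. CPM uses the TMM-adjusted library size. Totals came to 3298864 and 3616429 before depletion and 6045216 and 5670904 after it. Replicates are labelled as biological and differed by more than sampling noise (chi-square per degree of freedom 1.88 and 1.49). Alternatives used DESeq2 1.42.0, limma 3.58.1, other scalings and filters, a replicate block and each library left out. The fit was tested on simulated data.

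Gene positions are from GENCODE M21. The members and lists were chosen with earlier results of these data known. Beside the members, genes were named where they passed the threshold, were the lowest or highest of a list, lay within 20 kb of Ercc1, started within 1 kb of a member on the other strand, or were among the 5 nearest to Ercc1. Not every gene this rule would name is reported here. Genes called under an alternative setting, and those whose promoters are shown, were named after their values were seen. Python 3.11.15 and scipy 1.17.1 were used for the intervals and sequences.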

Additional observations from a re-analysis of the deposited data

How the results depend on the processing

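The log2 fold change of Ercc1 lay between -3.18 and -1.98 with 1 library left out at a time, and differed from -2.45 by less than the spread between replicates in the other alternatives. It could not be had with a mean count of at least 20, a filter that removes Ercc1. Recovered size factors gave 1 member other than Ercc1 (Ercc4) past the threshold and 4 lower genes in the wider list. They placed the median of all genes at -0.11, against -0.002 with TMM in the main fit. The share of all genes they called lower without a fold threshold was not counted. Which scaling is the better one was not tested. Leaving out each library gave 0 to 1 higher genes in the wider list, the 1 being Cul4b without control replicate 2. Of all genes tested, 31 to 45 were called lower across these fits, 57 with recovered size factors, 28 with DESeq2 and 166 without a fold threshold. Those called higher numbered 1 with the likelihood ratio test, 1 with the replicate block, 132 without a fold threshold, and 1 to 8 with a library left out (8 without control replicate 2, 2 without control replicate 1, 1 without either depletion library). In those fits the lone library of a group is assumed to vary like the others. Ercc3 turned to -0.0043 with library totals, -0.074 with recovered factors, -0.026 without control replicate 2 (-0.076 to 0.13 over the libraries left out). Xpa turned to 0.0028 without a filter, 0.012 without control replicate 1 and 0.042 without depletion replicate 2, a range of -0.044 to 0.042 with a library left out. Where not stated, the cause was not tested. Same-numbered libraries showed little shared deviation (r = 0.03 over genes). Sampling noise lowers such a value, so it cannot settle whether they were paired. With the replicate block Ercc1 stood at -2.46, 0 other members were called, and 43 of all genes tested were called lower. Ndufaf2 and Parp1 were added to these alternatives after their calls had been seen. With 2 libraries a group and 4 to 24 counts, the size of the Ercc1 fall is imprecise.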
